A study of Mus musculus with 8 samples.

Results

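Axon guidance ligands and receptors were examined in islets isolated from βFbln5KO mice and from control mice. The group was defined by gene symbol and holds the semaphorins, plexins, neuropilins Nrp1 and Nrp2, netrins, Dcc, UNC5 receptors, Slits, Robos, ephrins and Eph receptors, 71 of the 22911 genes that the arrays measured under a RefSeq symbol. Of the 71, 3 matched by spelling only and are not guidance genes: Unc50, Unc5cl and the antisense transcript Plxna4os1. A narrower reading of the rule, in which each prefix must be followed by a digit, A or B, holds 66 and leaves out Plxnc1, Plxnd1, Unc5c, Unc5d and Unc5cl. Each gene was read by the probe with the highest mean signal, and 33 of the 71 genes had more than 1 probe.

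Control mice carried the floxed Fbln5 allele, and βFbln5KO mice carried it together with Ins1-Cre, a transgene in which the mouse insulin 1 promoter drives Cre in β-cells. The controls carried no Cre, so that the transgene and the deletion cannot be told apart. All mice were 11 weeks old and, per the methods, male littermates. Each of 4 extractions per group held RNA of 150 whole islets, and each was hybridised to 1 of 8 one-colour Agilent arrays on 1 slide. In whole islets, fewer cells of a type and less RNA per cell cannot be told apart.

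Guidance cues were first described as signals that steer growing axons, and the same proteins act between cells of many other tissues. Class 3 semaphorins are secreted and bind neuropilins, which signal through plexins, whereas most membrane-bound semaphorins bind plexins directly. Netrins bind DCC and UNC5 receptors, Slits bind Robo receptors, and ephrins on one cell bind Eph receptors on its neighbour. In islets, Slit and Robo signals are known for their part in islet architecture, and EphA receptors and ephrin-As for contacts between β-cells that bear on insulin secretion.

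Signals are given as log2 of the processed signal minus each array's 75th percentile, so that 0 is that percentile, and differences are βFbln5KO minus control. The targeted gene, Fbln5, had log2 signals of −1.70, −1.31, −2.05 and −1.83 on the control arrays and −2.74, −2.40, −2.38 and −1.37 on the arrays labelled βFbln5KO replicates 1 to 4. The array labelled βFbln5KO replicate 4 lay within the control range. The log2 fold change was −0.50 (SE 0.29, adjusted p = 0.342 in limma), and with single arrays left out it ran from −0.33 (adjusted p = 0.596, without βFbln5KO replicate 1) to −0.78 (adjusted p = 0.0228, without βFbln5KO replicate 4), the 1 omission after which it passed the threshold. The number of spots well above background ranged from 33592 to 34889 on control arrays, and on βFbln5KO arrays from 31214 to 33549. The 75th percentile of the signal ranged from 709 to 1055 over all 8. The lowest log2 signal counted as well above background lay between −5.01 and −4.79 on control arrays, and between −4.70 and −4.19 on βFbln5KO arrays. The same dim signal can thus be flagged on a control array and not on a βFbln5KO array. A difference in detection counts is therefore not by itself a difference in signal. Each genotype lay in a slide row of its own, so that row and genotype cannot be told apart, and the number of arrays limits the precision. Of the 71 genes, the probes of 5 lie within the 16 uppermost spot rows and those of 2 within the 16 lowest.

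No axon guidance ligand or receptor passed the adjusted test, and for most of those detected on every array the interval of the difference was narrow. By the scanner software's flag on each gene's brightest probe, 49 of the 71 genes were detected (well above background) on all 8 arrays, 16 on 1 to 7 arrays and 6 on none. At an adjusted p under 0.05 in limma, 0 of the 71 genes differed between the groups, where 0.0106% of all 56605 probes did. At an unadjusted p under 0.05, Ntn5 and Unc5d were higher, 2 of 71 against 20.7% of all probes, and Plxna2 was lower, 1 of 71 against 3.97%. The methods' t-test, adjusted here in the same way, also gave 0 of 71, while the methods name no adjustment for it. Unadjusted, it called 0 higher and 1 lower, Plxnb1, of the genes detected on all 8 arrays. Of the 11730 higher probes, 227 were detected on every array, and the 18855 probes that were well above background on no array had a median log2 fold change of 0.47. Unc5d, 1 of the 2 higher genes, is such a probe.

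Among the 49 genes measured well above background on every array, 0 were higher and 1, Plxna2, was lower at an unadjusted limma p under 0.05. Over all 26612 probes of that kind, 0.853% were higher and 5.42% lower. The median log2 fold change of the 49 genes was −0.019, with a range from −0.32 for Ephb4 to 0.53 for Epha1, and that of all 26612 probes was −0.025. The groups did not overlap for 0 higher genes and for 1 lower gene, Sema6c, against 0.661% and 3.48% of the probes. For 40 of the 49 genes the 95% interval of the difference lay within 1.5-fold either way, and for 45 within 2-fold. The same held for 78.3% of all such probes within 1.5-fold.

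**Figure D1:**
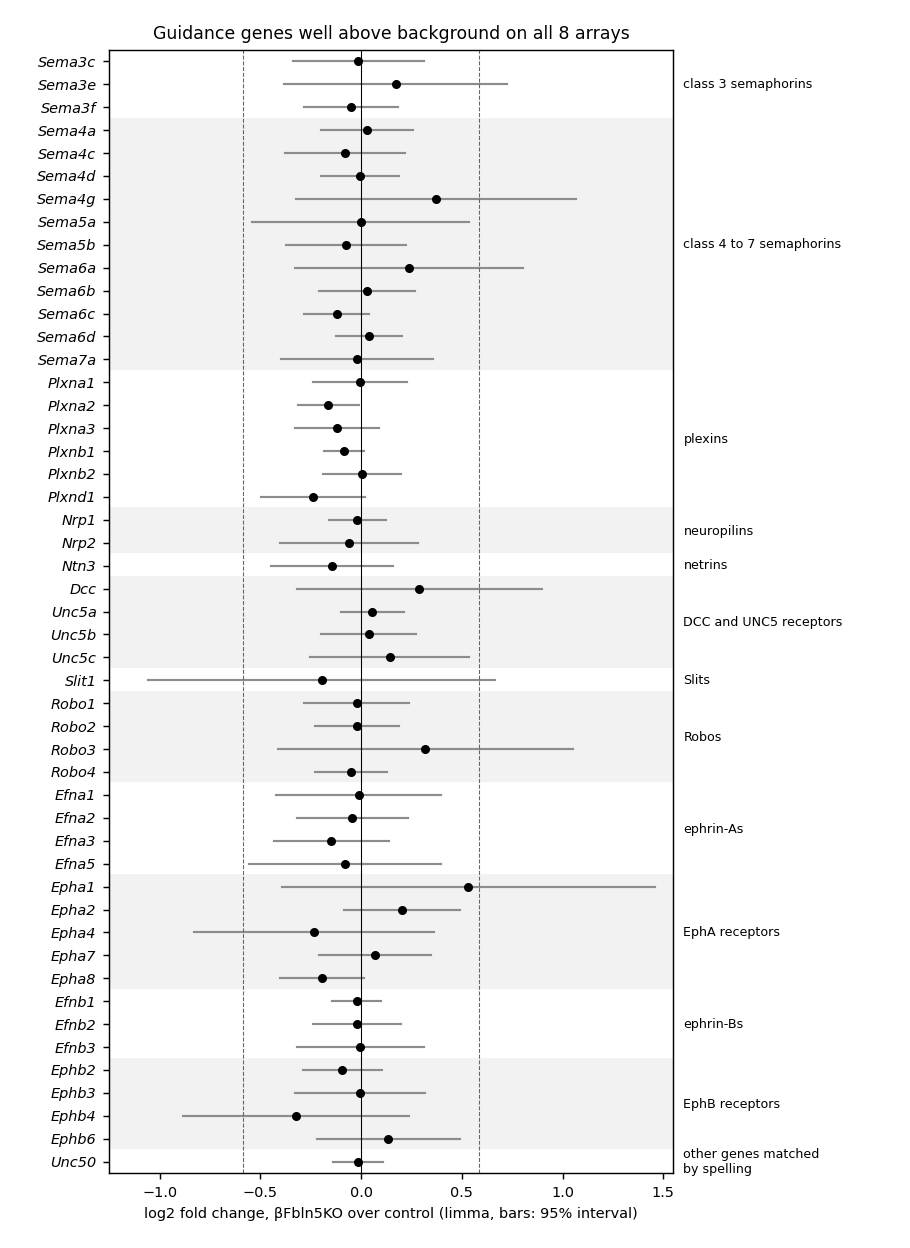
Log2 fold change of βFbln5KO over control islets (x axis) for the 49 genes well above background on all 8 arrays (y axis, grouped by family), with 95% limma intervals as bars and dashed lines at 1.5-fold. The intervals of 40 genes lie between the dashed lines, and that of Plxna2 alone does not reach 0.

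**Figure D2:**
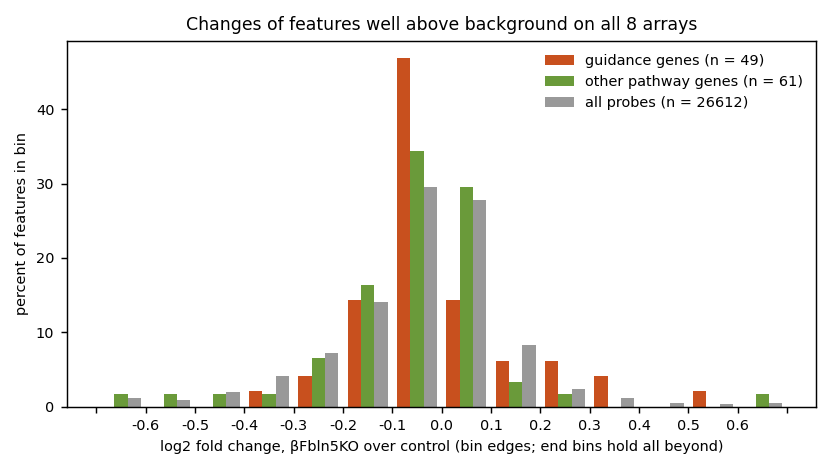
Percent of features (y axis) in bins of log2 fold change 0.1 wide (x axis) for guidance genes, other genes of the pathway and all probes, each well above background on all 8 arrays. Of the 49 guidance genes, 23 lie between −0.1 and 0, the bin that also holds more probes than any other.

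Secreted class 3 semaphorins were measured by 7 genes, 3 of them detected on all arrays. The 4 control values of Sema3c ran from −1.32 to −0.83 and the 4 βFbln5KO values from −1.26 to −0.77, with a log2 fold change of −0.01 (SE 0.14). Sema3f differed by −0.05 (SE 0.10) and Sema3e by 0.17 (SE 0.24, adjusted p = 0.759 in limma). The Sema3e difference ran from 0.018 without βFbln5KO replicate 4 to 0.30 without βFbln5KO replicate 2. On the brightest probe of each of these genes the groups overlapped. A second probe of Sema3f, detected on all 8 arrays, was at −3.54, −2.05, −3.61 and −3.69 in control and at −3.69, −3.74, −3.83 and −3.72 in βFbln5KO islets. On it the groups lay apart by less than the last printed digit, and the difference of −0.52 (SE 0.36) had an adjusted p of 0.446 in limma.

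Sema3d was not well above background on any array. Its log2 signals were −6.96, −6.86, −7.07 and −5.94 in control and −6.25, −6.32, −6.53 and −5.90 in βFbln5KO islets. No fold is given for a gene that is dim in both groups, and Sema3a was dim on all 8 arrays as well. Sema3b was at −3.08, −3.86, −0.89 and −2.64 on the βFbln5KO arrays, against −3.66 to −2.74 in control, and Sema3g at −4.53, −5.51, −2.94 and −4.56 against −5.60 to −4.66. In both genes βFbln5KO replicate 3 was the high array, and their probes lie in spot rows 17 and 3. The same array was also the highest for Sema4g, Sema6a and Ntn4, whose probes lie in rows 109, 116 and 53. The part of spot position in these values was not tested.

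The other semaphorins (classes 4 to 7, mostly membrane-bound) were measured by 12 genes, 11 of them well above background throughout. Their log2 fold changes ran from −0.12 for Sema6c to 0.37 for Sema4g, with 5 above 0 and 6 below. Sema4a, a semaphorin also known from immune cells and the retina, differed by 0.03 (SE 0.10), Sema4d by −0.01 (SE 0.085), Sema6d by 0.04 (SE 0.073) and Sema7a, which is anchored to the membrane by a lipid, by −0.02 (SE 0.17).

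Sema6c was at −0.76, −0.88, −0.79 and −0.85 in control and at −0.89, −0.88, −1.09 and −0.91 in βFbln5KO islets. Replicate 2 of each group was at −0.88, so that the gap between the groups was under the last printed digit, and the difference of −0.12 (SE 0.071) had an adjusted p of 0.359 in limma. Sema4g was at −2.13, −1.64, −1.54 and −1.87 in control and at −1.85, −2.001, −0.52 and −1.32 in βFbln5KO islets, so that replicate 3 was again the highest. Its difference of 0.37 (SE 0.31) had an adjusted p of 0.547, and with single arrays left out it ran from 0.068, without that array, to 0.56, without βFbln5KO replicate 2. Sema4c was at 5.01, 4.88, 5.34 and 4.83 in control and at 4.999, 4.80, 4.77 and 5.18 in βFbln5KO islets, with control replicate 3 and βFbln5KO replicate 4 the highest of their groups. Its brightest probe differed by −0.08 (SE 0.13) and its second by 0.32 (SE 0.21). Sema4f was detected on 7 arrays.

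Plexins, the semaphorin receptors, held the 1 detected gene with an unadjusted call. Plxna2, a class A plexin that pairs with neuropilins, lies on chromosome 1 of GRCm38 from 194619791 to 194816869. It was at 1.65, 1.79, 1.79 and 1.85 in control islets and at 1.49, 1.75, 1.62 and 1.58 in βFbln5KO islets. Control replicate 1 and βFbln5KO replicate 2 crossed, while the other 3 βFbln5KO arrays were below every control array. The log2 fold change was −0.16 (SE 0.067, 95% interval −0.31 to −0.01), with an unadjusted p of 0.0385 and an adjusted p of 0.169 in limma. Its second probe differed by −0.23 (SE 0.11, adjusted p = 0.258). The unadjusted call was kept without control replicate 1 or βFbln5KO replicate 2 and was lost without each of the other 6 arrays.

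Of the 6 plexins well above background on all arrays, 5 were below 0 in βFbln5KO islets, as were 15735 of all 26612 detected probes. Plxnd1, a plexin of endothelial cells that binds Sema3e, was at 0.67, 1.00, 1.24 and 0.82 in control and at 0.59, 0.76, 0.67 and 0.74 in βFbln5KO islets. The difference of −0.24 (SE 0.11) had an adjusted p of 0.245 in limma, and ran from −0.33 without control replicate 1, where the unadjusted p was 0.0119, to −0.13 without control replicate 3. Plxnb1, a receptor for Sema4d, was at 1.03, 0.95, 0.98 and 1.03 against 0.91, 0.97, 0.90 and 0.88, a difference of −0.08 (SE 0.043, adjusted p = 0.295 in limma). Both genes overlapped between the groups. Plxna3 differed by −0.12 (SE 0.092) on its brightest probe and by 0.15 (SE 0.13) on a second probe that was also detected on every array, Plxna1 by −0.01 (SE 0.10) and Plxnb2 by 0.00 (SE 0.085). The brightest probes of Plxna4, Plxnb3 and Plxnc1 were well above background on 7, 4 and 1 arrays, and a second probe of Plxnb3 was so on βFbln5KO replicate 1 alone, at −2.53.

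The neuropilins, co-receptors for class 3 semaphorins and for vascular endothelial growth factor, were close in both groups. Nrp1 was at 2.43, 2.56, 2.63 and 2.42 in control and at 2.48, 2.59, 2.43 and 2.46 in βFbln5KO islets, a difference of −0.02 with an interval of −0.16 to 0.12. Its second probe differed by −0.05 (SE 0.098). Another probe of Nrp1, in spot row 378, was at −3.43, −3.53, −3.82 and −3.69 in βFbln5KO islets and at −3.12, −2.20, −3.03 and −3.21 in control islets. On this probe the groups did not overlap, and the log2 difference was −0.73 (SE 0.25, unadjusted p = 0.0166, adjusted p = 0.0948 in limma). Nrp2 was at 4.41, 4.42, 5.04 and 4.49 in control and at 4.47, 4.41, 4.44 and 4.78 in βFbln5KO islets. Control replicate 3 and βFbln5KO replicate 4 were the high arrays, and the difference was −0.06 (SE 0.15, adjusted p = 0.875).

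**Figure D3:**
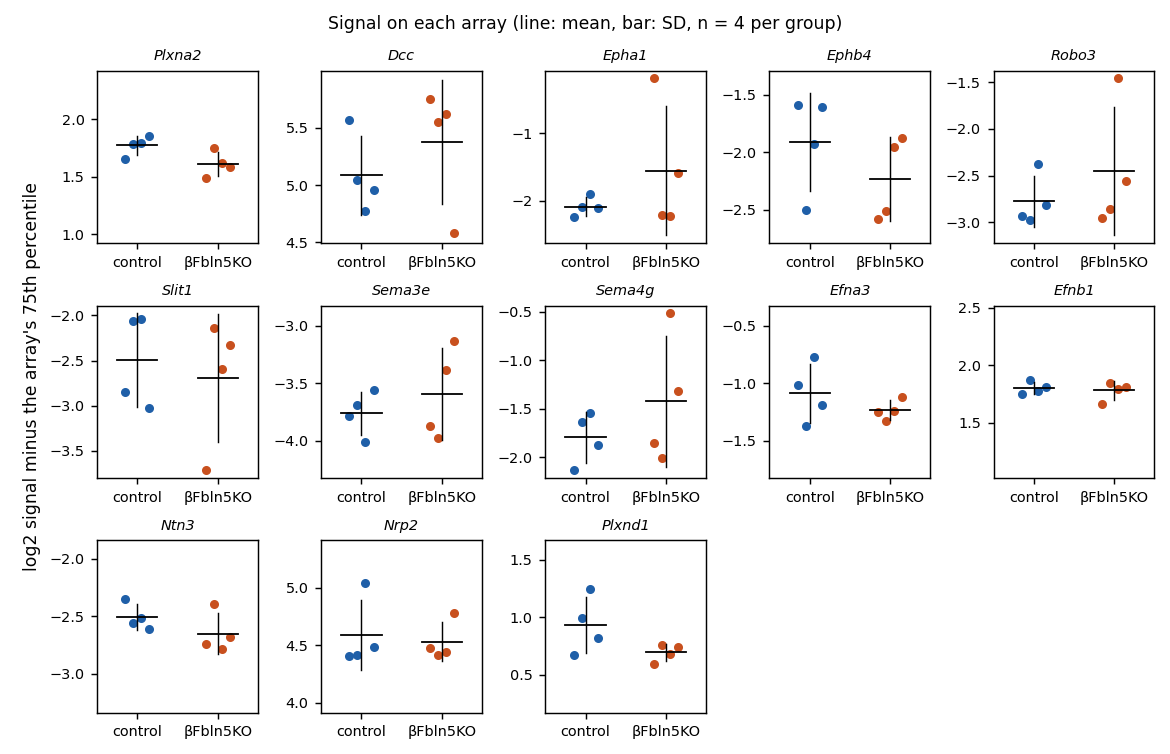
Log2 signal on each array (y axis, own scale per panel, at least 1.5 units high) for Plxna2 and the gene with the largest difference of each family among those well above background on all 8 arrays, with the mean and SD of 4 arrays per group. Control and βFbln5KO points overlap in every panel. The array labelled βFbln5KO replicate 4 lies apart from the other 3 of its group for Dcc and Nrp2. So do βFbln5KO replicate 1 for Epha1 and Slit1 and βFbln5KO replicate 3 for Robo3 and Sema4g.

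Netrins, secreted cues related to laminins, were mostly dim in islets. Ntn3 was the 1 netrin well above background on all arrays, at −2.51 ± 0.11 (SD, n = 4) in islets of control mice and −2.65 ± 0.18 (SD, n = 4) in those of βFbln5KO mice, a difference of −0.14 (SE 0.13, adjusted p = 0.605 in limma). A second probe of Ntn3 was detected on 4 control arrays and 1 βFbln5KO array. Control replicate 4 was at −1.40 and the other 7 arrays between −4.95 and −4.21. Of these, βFbln5KO replicate 2, at −4.23, was not flagged, while control replicates 1 to 3, at −4.77, −4.36 and −4.57, were. The mean over both Ntn3 probes differed by −0.44 (adjusted p = 0.605). With single arrays left out, the brightest probe differed by −0.23 to −0.092. Ntn1 was at −4.81, −4.28, −2.87 and −4.15 in control and at −5.58, −5.44, −5.24 and −3.39 in βFbln5KO islets. Its signal was detected on 3 control arrays and 1 βFbln5KO array, and the adjusted p was 0.419 in limma. No fold is given, since the βFbln5KO mean rests on 3 dim values. Ntn4 was above background on βFbln5KO replicate 3 alone, at −3.43, where its other 7 values lay between −6.89 and −5.87.

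Ntn5, which lies on chromosome 7 of GRCm38 from 45684022 to 45694556, was at −7.00, −6.96, −7.15 and −6.95 on the control arrays and at −6.32, −6.41, −1.77 and −2.11 on the βFbln5KO arrays. It was well above background on βFbln5KO replicates 3 and 4 alone, so that the βFbln5KO arrays fell into a dim and a bright pair. Set against a floor, the mean signal was at least 1.66-fold higher in βFbln5KO islets. This compares the βFbln5KO mean over all 4 arrays, in which the dim pair stands at its measured values, with the detection floor of the control arrays, the lowest signal on each that counted as well above background. The unadjusted p was 0.0269 and the adjusted p 0.132 in limma. With normexp background correction the log2 difference was 0.48 in place of the fitted 2.86, less than the bound, so that the bound holds only for the processed signal. The unadjusted p stayed under 0.05 in 10 of 17 alternative settings, and the adjusted p in none. Without βFbln5KO replicate 3 there is no bound, without replicate 4 it is 1.03-fold, and without replicate 1 or 2 it is 2.73-fold or 2.79-fold. The brighter probe lies in spot row 13. The second probe, in row 10, was dim on all control arrays and on βFbln5KO replicates 1, 3 and 4, and its value on βFbln5KO replicate 2, the 1 array with the probe above background, was left out as an outlier.

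**Figure D4:**
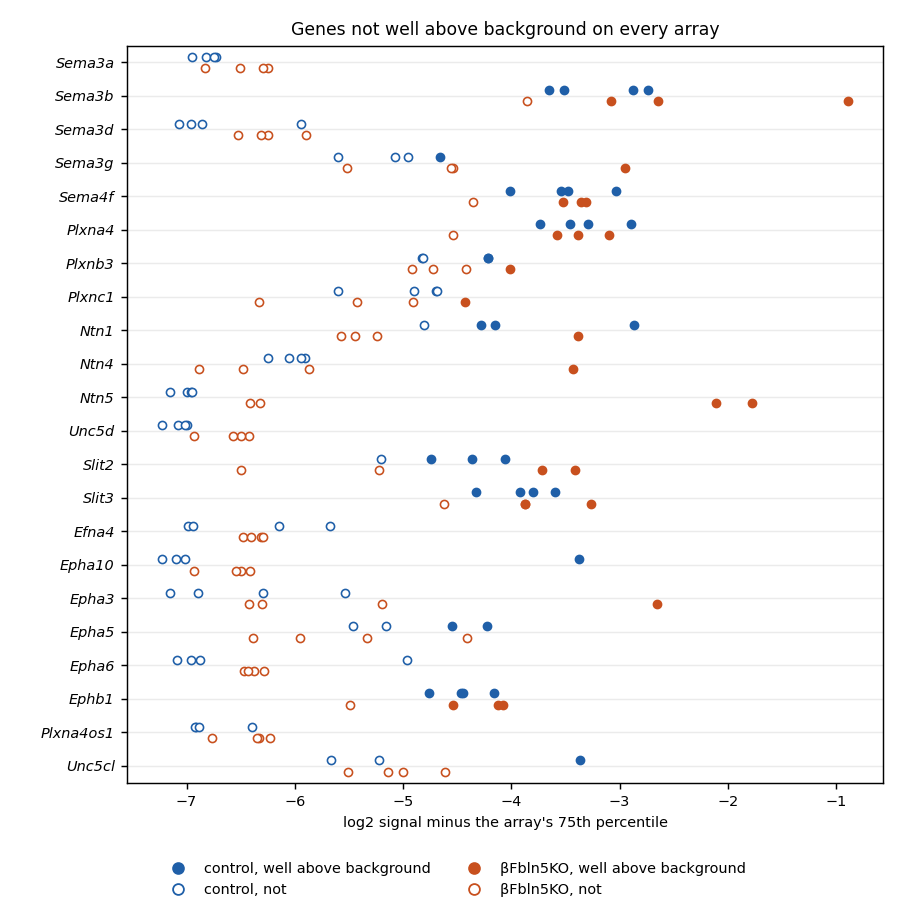
Log2 signal (x axis) of the 22 genes not well above background on every array (y axis), with control arrays in blue and βFbln5KO arrays in orange, filled where well above background. Ntn5 is filled on 2 βFbln5KO arrays, and the open βFbln5KO points lie to the right of the open control points for most of the dimmest genes.

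The netrin receptors were detected more evenly than their ligands. Unc5a, Unc5b and Unc5c, which mediate repulsion by netrins, were detected on all 8 arrays and differed by 0.06 (SE 0.068), 0.04 (SE 0.10) and 0.14 (SE 0.17). A second probe of Unc5b differed by −0.02 (SE 0.087). Unc5d was dim on all 8 arrays. Its unadjusted p of 0.00828 (adjusted p = 0.0729 in limma) goes with a difference of 0.47 between dim signals, where 0.47 was the median over all probes dim throughout, and no fold is given.

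Dcc, the receptor for attraction by netrins, was at 5.57, 5.04, 4.78 and 4.95 in control and at 5.75, 5.55, 5.62 and 4.58 in βFbln5KO islets. The array labelled βFbln5KO replicate 4 was the lowest of all 8, and the other 3 were within or just above the control range. The log2 fold change of 0.29 (SE 0.27) had an adjusted p of 0.5998 in limma, and with single arrays left out it ran from 0.16 (without βFbln5KO replicate 1) to 0.55 (without βFbln5KO replicate 4). The latter had an unadjusted p of 0.0174 and an adjusted p of 0.0797, in a limma fit that called 11206 probes higher over the whole array. On none of the 8 arrays were the other 3 probes of Dcc detected, so that the gene's detection rests on 1 of its 4 probes. Every Dcc value here is that of this 1 probe, whose specificity for Dcc was not tested. The 3 arrays with the lowest Dcc signals, βFbln5KO replicate 4 and control replicates 3 and 4, were the 3 with the highest mean log2 signal of acinar markers, at 7.84, 8.47 and 8.19. All 8 acinar markers were well above background on every array, and their part in the Dcc signal was not tested. The 2 arrays on which Nrp2, Ephb3 and Sema4c were highest in their groups, control replicate 3 and βFbln5KO replicate 4, had the highest acinar level of each group, and its part in these signals was not tested either.

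**Figure D5:**
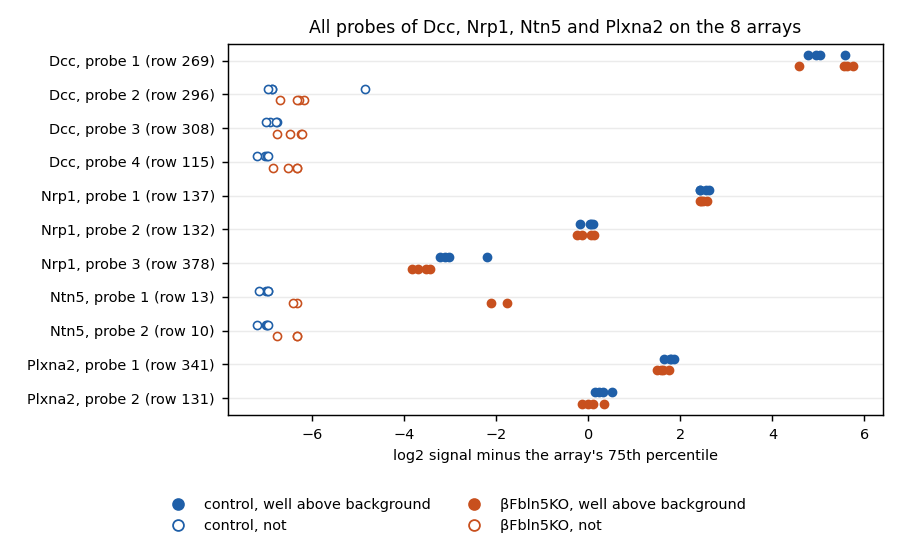
Log2 signal (x axis) of every probe of Dcc, Nrp1, Ntn5 and Plxna2 (y axis, with the spot row) on the 8 arrays, filled where well above background. Of 4 Dcc probes, 1 is filled on all arrays and 3 on none, and the dimmest of the 3 Nrp1 probes is the 1 probe of that gene with separated groups.

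Slits are secreted ligands of the Robo receptors. Slit1 was at −2.85, −2.07, −2.03 and −3.03 in control and at −3.71, −2.14, −2.59 and −2.33 in βFbln5KO islets, a difference of −0.20 (SE 0.38, adjusted p = 0.830 in limma). Slit2 was detected on 3 control and 2 βFbln5KO arrays, and no fold is given. Slit3 was detected on 7 arrays and differed by 0.00 (SE 0.31). For Slit1 and Slit3 the spread between arrays was larger than the difference.

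The 4 Robo receptors were well above background on every array. Robo1 was at 1.17, 1.35, 1.34 and 1.33 in control and at 1.04, 1.52, 1.45 and 1.09 in βFbln5KO islets, a difference of −0.02 with an interval of −0.28 to 0.24. Robo2 differed by −0.02 (interval −0.23 to 0.19) and Robo4, the Robo of endothelial cells, by −0.05 (interval −0.23 to 0.13). The groups overlapped for all 3 genes. Robo3 was at −2.93, −2.97, −2.38 and −2.81 in control and at −2.95, −2.85, −1.46 and −2.55 in βFbln5KO islets. Its difference of 0.32 (SE 0.32, adjusted p = 0.639) rested on βFbln5KO replicate 3, without which it was −0.013, and its probe lies in spot row 12. A second probe of Robo1 was dim on all arrays.

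Ephrin-As are anchored to the cell surface by a lipid and bind EphA receptors. Of 5 genes, 4 were well above background throughout, with differences from −0.15 for Efna3 to −0.01 for Efna1. Efna5 was at 0.34, 1.00, 0.09 and 0.43 in control and at 0.68, −0.06, 0.47 and 0.45 in βFbln5KO islets. Its brightest probe differed by −0.08 (SE 0.21) and its second probe by −0.11, and the groups overlapped on both. The value of Efna1 on βFbln5KO replicate 2 was an outlier and was left out, so that 3 arrays stand for βFbln5KO. Efna3 was at −1.09 ± 0.25 (SD, n = 4) in islets of control mice and −1.23 ± 0.088 (SD, n = 4) in those of βFbln5KO mice, with an adjusted p of 0.565 in limma. The difference of −0.15 ran from −0.24 without control replicate 2 to −0.042 without control replicate 3. Its second probe had the opposite sign, at −2.53 on βFbln5KO replicate 3, the 1 array where it was detected, and between −7.04 and −6.12 on the other 7.

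The EphA receptors, tyrosine kinases, were measured by 9 genes, 5 of them well above background on all arrays. The control values of Epha7 ran from −2.44 to −2.06 and the βFbln5KO values from −2.28 to −2.08, a difference of 0.07 (SE 0.12). Epha2 differed by 0.20 (SE 0.13), Epha4 by −0.23 (SE 0.26) and Epha8 by −0.19 (SE 0.092, unadjusted p = 0.0660). Epha1 was at −2.25, −2.10, −1.89 and −2.11 in control and at −0.19, −2.21, −2.23 and −1.59 in βFbln5KO islets. Replicate 1 was the high array, and the difference of 0.53 (SE 0.41) had an adjusted p of 0.506 in limma. With single arrays left out it ran from 0.079, without that array, to 0.76, without βFbln5KO replicate 3.

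The brightest probe of Epha5 was detected on control replicates 1 and 2 alone, at −4.22 and −4.55. Its second probe was detected on βFbln5KO replicate 4 alone, at −4.20, and had the opposite sign, so that the gene was detected in both groups. The control mean of the brightest probe, −4.85, was not above the floor of detection of the βFbln5KO arrays, so that no fold is given (adjusted p = 0.460). Single arrays alone showed Epha3 (βFbln5KO replicate 4, at −2.65) and Epha10 (control replicate 2, at −3.38), and Epha6 was dim throughout.

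Ephrin-Bs span the membrane and bind EphB receptors, and all 3 were detected on every array. Efnb1 was at 1.75, 1.87, 1.78 and 1.81 in control and at 1.67, 1.85, 1.79 and 1.81 in βFbln5KO islets, with an interval of −0.14 to 0.10 for the difference. Efnb2 differed by −0.02 (SE 0.096) and Efnb3 by −0.0043 (SE 0.14). Of the receptors, Ephb2 differed by −0.09 (SE 0.086), Ephb3 by −0.01 (SE 0.14), and Ephb6, which lacks kinase activity, by 0.13 (SE 0.16). Ephb4, the partner of Efnb2 in vessels, was at −1.59, −2.50, −1.93 and −1.60 in control and at −2.58, −2.51, −1.96 and −1.87 in βFbln5KO islets, a difference of −0.32 (SE 0.25, adjusted p = 0.507 in limma). With single arrays left out it ran from −0.52 (without control replicate 2, unadjusted p = 0.0394, adjusted p = 0.175 in limma) to −0.21 (without βFbln5KO replicate 1). The groups overlapped for each of these genes. Ephb1 was well above background on 7 arrays.

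Of the 3 genes matched by spelling, Unc50 differed by −0.01 (SE 0.054), Unc5cl was detected on 2 control arrays, and Plxna4os1 was dim throughout. The value of Unc5cl on 1 of these 2 arrays, control replicate 2, was left out as an outlier, and control replicate 3 was at −3.36.

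The rest of the guidance pathway was read from a list of 70 genes, which holds other cues, co-receptors and the intracellular effectors that act on the cytoskeleton. At an adjusted limma p under 0.05, 0 of the 70 differed. Of the 61 detected on every array, 0 were higher and 2 were lower in βFbln5KO by an unadjusted p under 0.05, where 0.853% and 5.42% of all detected probes were, and the 61 had a median log2 fold change of −0.022. Grb10, an adaptor that binds the insulin receptor, was at −2.06 ± 0.38 (SD, n = 4) in islets of control mice and −2.72 ± 0.24 (SD, n = 4) in those of βFbln5KO mice (log2 fold change −0.67, SE 0.21, adjusted p = 0.0795). Gsk3b, a kinase that phosphorylates collapsin response mediators, was at 3.38 ± 0.11 (SD, n = 4) and 3.16 ± 0.12 (SD, n = 4), where the log2 difference of −0.22 (SE 0.076) had an adjusted p of 0.103. Both overlapped between the groups. Cntn2 and Draxin also reached an unadjusted p under 0.05, with higher signals in βFbln5KO, but were dim on all 8 arrays.

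Marker lists of the cells that could carry these transcripts were compared as the mean log2 signal of a list on each array. Ranges are given for control and then for βFbln5KO islets. Endothelial markers lay between 1.51 and 1.59, and between 1.46 and 1.58, β-cell markers from 5.45 to 5.53 and from 5.37 to 5.47, and neuronal markers from 0.44 to 1.39 and from 0.59 to 1.54. Schwann cell markers ranged from −2.80 to −2.19 and from −2.63 to −1.80, with Cdh19 dim on all arrays, mesenchymal markers from −0.39 to 0.59 and from −0.31 to 0.19, and macrophage markers from −0.56 to −0.26 and from −0.68 to 0.12. Alpha cell markers ranged from 3.37 to 3.57 and from 3.10 to 3.46, delta cell markers from 4.06 to 4.41 and from 4.02 to 4.22, PP cell markers from 7.26 to 7.67 and from 7.33 to 7.77, and ductal markers from −1.97 to −1.24 and from −2.16 to −1.19. Acinar markers ranged from 7.02 to 8.47 and from 6.24 to 7.84, the widest spread of the 11 lists. No marker passed an adjusted p of 0.05 in limma, and 0 were higher in βFbln5KO at an unadjusted p under 0.05.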

How the data were processed

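Islet RNA was measured on 8 one-colour Agilent arrays. The authors deposited scanner output of Agilent Feature Extraction 11.0.1.1, whose processed signal is an intensity, background-subtracted and spatially detrended but not normalized between arrays, with 0 or 1 flags (other values) for outliers and for spots well above background. The deposited series table holds that signal divided by 1 number per array.

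From 59305 spots that are not controls, log2 processed signals were taken, each array's 75th percentile was subtracted, outlier spots were left out and spots of a probe were averaged. SystematicName accessions gave 32994 of 56605 probes a RefSeq symbol (GRCm38.p6). Groups were compared with limma 3.58.1 (lmFit, eBayes with trend) (R 4.3.3), and p-values were adjusted by Benjamini-Hochberg across the 56605 probes. Figures used matplotlib 3.10.9. The test was checked on simulated data, drawn as independent normal values for each probe and array. The simulation held no offset of dim probes between the groups and cannot speak for that offset.

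Named with values were Fbln5, Ntn5, Sema3d, detected members with an unadjusted p under 0.05, and each family's largest difference among members detected on all arrays. Others were added after their values were seen. Members and lists (the pathway list and 11 marker lists) were chosen with earlier results of these data known. Alternatives were normexp (offset 50, on the median signal, in place of the mean signal), quantile normalization, a filter on dim probes (at least 4 arrays), a floor, eBayes without trend, outliers kept, the methods' t-test, a mean over each gene's probes, the deposited table, a replicate block, outer 16 spot rows left out, and each array left out. The result of 1 marker gene with a lower signal is not reported here.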

Additional observations from a re-analysis of the deposited data

Results flagged for a closer look

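On 51 genes, 101 groups of 4 arrays were screened for an array far from the other 3, which chance finds in about 1 of 20 groups, and 8 were found. Control replicate 3 was high for Ephb3 at 4.86, where the other control arrays lay between 4.31 and 4.32, and for Nrp2 at 5.04, where they lay between 4.41 and 4.49. The array labelled βFbln5KO replicate 4 was high for Nrp2 at 4.78 (others 4.41 to 4.47) and low for Dcc at 4.58 (others 5.55 to 5.75). Control replicate 1 was low for Plxna1 at −1.18 (others −0.85 to −0.78) and for Robo1 at 1.17 (others 1.33 to 1.35). βFbln5KO replicate 1 was high for Sema3c at −0.77 (others −1.26 to −1.19), and βFbln5KO replicate 3 was low for Sema6c at −1.09 (others −0.91 to −0.88). No cause of these values was tested.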

How the results depend on the processing

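The number of the 71 genes past an adjusted p of 0.05 was 0 in each setting except without the array labelled βFbln5KO replicate 4, where it was 2 (Sema3a and Unc5d, both dim on all arrays), so that with single arrays left out it ranged from 0 to 2. In that fit 11206 probes were higher and 338 lower over the whole array, and with eBayes without trend 6184 and 394. Among the 49 genes detected throughout, 0 were higher at an unadjusted p under 0.05, or 0 to 1 with single arrays left out (Epha2 without control replicate 3, Dcc without βFbln5KO replicate 4). The 1 lower gene became 2 with normexp (Epha8 and Plxnd1), the floor (Plxna2 and Plxnb1) and the mean of a gene's probes (Nrp1 and Plxna2), 0 with eBayes without trend and with the deposited table, and another 1 (Plxnb1) with the methods' t-test, and 0 to 2 with single arrays left out. With the replicate block it was 2 (Plxna2 and Plxnd1). The replicate numbers pair nothing in the labels, and deviations of same-numbered arrays correlated at 0.20, 0.29, −0.22 and −0.02 over 26612 probes. The median log2 fold change of the 49 genes stayed between −0.053 and 0.017. Of the 49 genes, 26 changed sign when 1 of the 8 arrays was left out. Among the genes named by the rule, the direction turned with normexp for Sema3d (−0.16), Efnb1 (0.026) and Nrp2 (0.014), with the mean of a gene's probes for Efna3 (0.68), and with single arrays left out for Robo3 (−0.013 to 0.48), Slit1 (−0.38 to 0.14), Efnb1 (−0.045 to 0.016) and Nrp2 (−0.14 to 0.091). None of these passed the threshold. The cause was not tested. The deposited table holds 61 of the 71 genes' probes, and 64 remain without the outer rows. Dim signals limit the 22 genes not detected on every array.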
